A study of Mus musculus with 8 samples.

Results

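Serotonin receptors were measured in choroid plexus taken from the fourth ventricle of mouse embryos, the tissue of epithelium and vascular stroma that makes cerebrospinal fluid. The members were all probe sets whose only gene in the array annotation is 1 of 10 named receptor genes, Htr1a, Htr1b, Htr1d, Htr2a, Htr2b, Htr2c, Htr3a, Htr4, Htr5a and Htr7. They come to 17 of the 45037 probe sets that are not controls, and they stand for 9 of the 10 genes. Htr2a had no probe set under its own symbol and is not analysed here. Of the 9 genes, 2 had 1 probe set, 6 had 2 and 1 (Htr1d) had 3.

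Total RNA came from mouse embryos of mixed strain background at embryonic day 13, untreated and of undetermined sex. There were 4 arrays labelled Otx2 k.o. and 4 labelled wildtype from the same litters, each a biological replicate. The knockout strain is given as an Otx2 deficient line with a published source, and the labels name no Cre driver, deleted exon or number of embryos per sample. Values are log2 expression levels made by RMA, and array medians lay between 5.85 and 5.90.

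Otx2 itself was not lower in the knockout-labelled arrays. Its only probe set read 12.00, 12.05, 11.97 and 11.85 in wildtype and 12.38, 12.46, 12.44 and 12.48 in knockout-labelled arrays (limma across all probe sets, adjusted p = 0.00134). All knockout-labelled arrays were above all wildtype arrays, and whether its probes lie inside or outside the deletion was not analysed here. Each direction given here therefore rests on the labels alone.

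Serotonin acts through a family of receptors that are nearly all coupled to G proteins. The Htr1 and Htr5 receptors signal mainly through Gi, which lowers cyclic AMP, the Htr2 receptors through Gq and phospholipase C, and Htr4, Htr6 and Htr7 through Gs, which raises cyclic AMP. Htr3a and Htr3b are subunits of an ion channel opened by serotonin. Htr2c is the receptor best known from the choroid plexus, where its messenger RNA is abundant in the epithelium, and its pre-mRNA is edited from adenosine to inosine by the Adar enzymes. Otx2 is a homeodomain transcription factor of the bicoid type, a class whose preferred DNA site is TAATCC.

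The promoter of Htr2c is shown because Htr2c was the receptor that differed between the groups, and that of Htr2b because it was the other member window with the TAATC core of the bicoid site. Each window runs from 250 bases before to 50 bases after the start site in RefSeq (GRCm38.p6), 5′ to 3′ on the strand of the gene, with the core in capitals (TAATC, or GATTA where it lies on the opposite strand).
Htr2c, chrX:146962263-146962562, plus strand: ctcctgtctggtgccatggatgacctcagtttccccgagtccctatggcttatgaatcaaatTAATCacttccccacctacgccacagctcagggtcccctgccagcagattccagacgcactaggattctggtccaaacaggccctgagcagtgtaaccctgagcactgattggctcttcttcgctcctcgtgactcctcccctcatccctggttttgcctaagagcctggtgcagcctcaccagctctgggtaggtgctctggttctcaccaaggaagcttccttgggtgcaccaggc
Htr2b, chr1:86111931-86112230, minus strand: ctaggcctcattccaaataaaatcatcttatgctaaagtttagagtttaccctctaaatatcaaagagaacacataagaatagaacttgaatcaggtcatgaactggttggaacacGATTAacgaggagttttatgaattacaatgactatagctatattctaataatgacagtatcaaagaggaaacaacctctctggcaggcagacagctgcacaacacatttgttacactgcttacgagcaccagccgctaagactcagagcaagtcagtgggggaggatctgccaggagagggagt

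RefSeq windows were matched for 8 of the 10 genes, 9 windows in all. TAATC, searched on both strands, was found in 2 of the 9 and in 22.0% of all 32851 promoter windows of the same length. The longer TAATCC, which contains TAATC, was found in 0 of the 9 and in 7.06% of all windows. Such a match describes the letters of the window only, and the array does not measure binding.

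**Figure D1:**
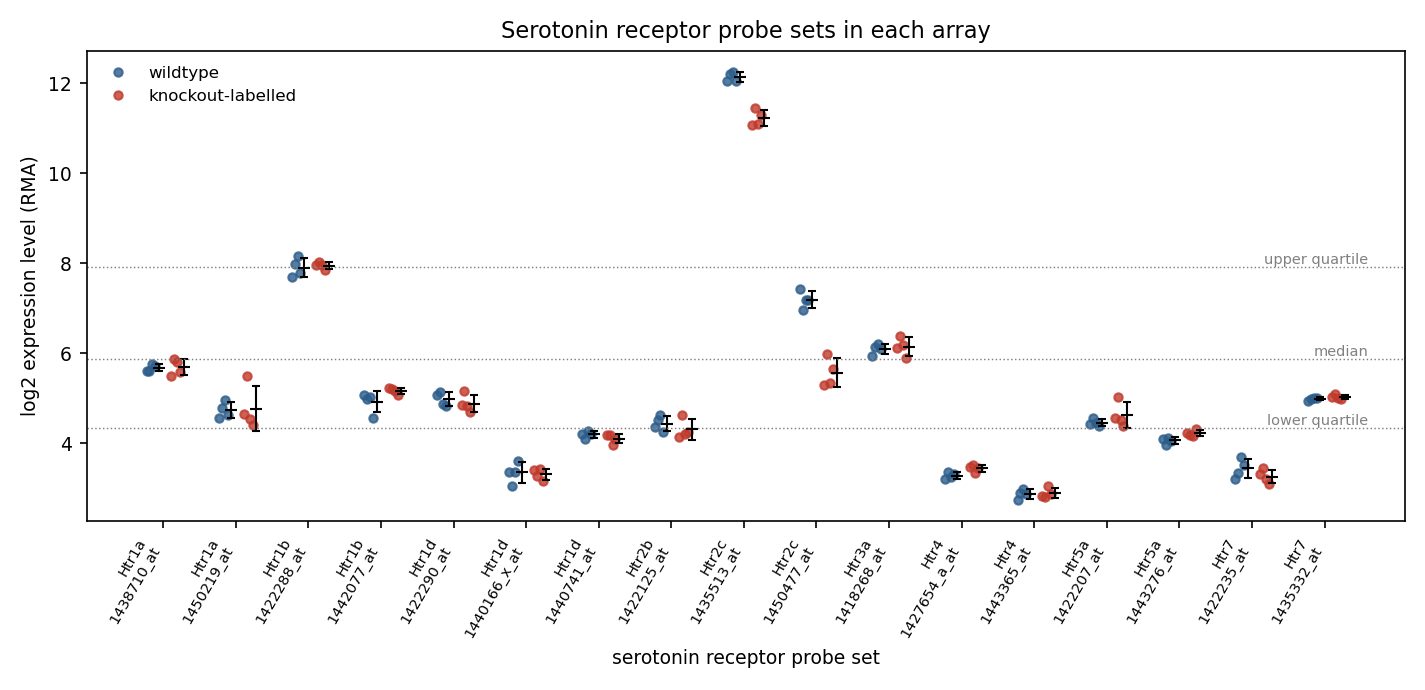
Log2 expression level of each of the 17 serotonin receptor probe sets (x axis: gene and probe set) in each array, with the mean and SD beside the points, wildtype in blue and knockout-labelled in red, and dotted lines at the quartiles of all probe sets. The arrays of the 2 groups lie apart at both Htr2c probe sets, while nearly all other receptor probe sets have overlapping groups.

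Htr2c was lower in every knockout-labelled array than in every wildtype array. Its brighter probe set (1435513_at) read 12.05, 12.20, 12.24 and 12.05 log2 units in wildtype replicates 1 to 4 and 11.06, 11.44, 11.10 and 11.29 in knockout-labelled replicates 1 to 4. The groups did not overlap, and the highest knockout-labelled array was replicate 2. The means were 12.14 ± 0.10 and 11.23 ± 0.18 (SD, n = 4 each), a log2 fold change of -0.91 with a 95% interval from -1.13 to -0.69, so that the signal was 53.2% of the wildtype level (limma across all probe sets, adjusted p = 0.000240).

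The dimmer probe set of Htr2c (1450477_at) gave a larger difference. It read 7.43, 6.95, 7.19 and 7.19 in the wildtype arrays and 5.30, 5.99, 5.33 and 5.65 in the knockout-labelled arrays. The groups were again apart, with knockout-labelled replicate 2 again the highest of its group. The log2 fold change was -1.63 with a 95% interval from -1.98 to -1.27, or 32.4% of the wildtype level (limma across all probe sets, adjusted p = 0.000139).

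The size of the Htr2c difference on this array thus depended on which probe set was read, and the 95% intervals of the pair did not overlap. The brighter one sits at the 98.6th percentile of all probe sets by mean level and the dimmer one at the 57.0th. Which part of the Htr2c transcript each of them covers was not analysed here.

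**Figure D2:**
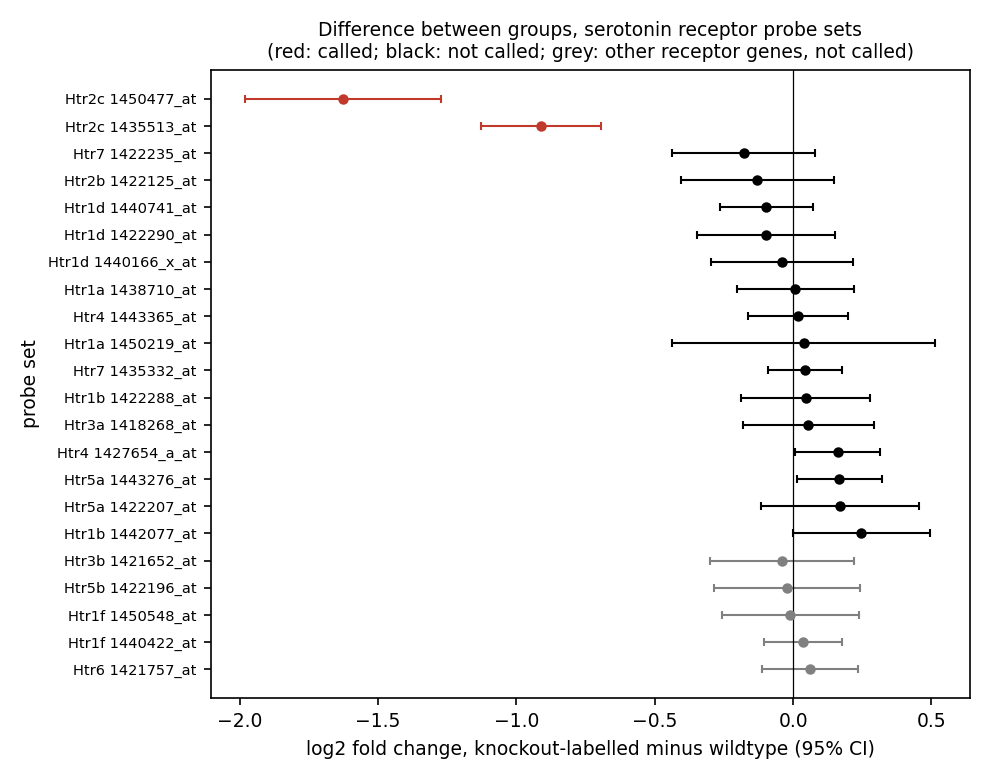
Log2 fold change of each serotonin receptor probe set, knockout-labelled minus wildtype, with its 95% interval from limma across all probe sets (red: passed the test, black: members that did not pass, grey: receptor genes outside the 10). The Htr2c intervals lie between -1.98 and -0.69, and no interval of an uncalled member goes below -0.44 or above 0.51.

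Over all probe sets 12.7% passed the test (adjusted p under 0.05), and among the receptors 2 of 17 did, both of Htr2c. Both were lower (7.46% of all probe sets were) and 0 of the 17 were higher (5.27% of all). Over genes, each read from its brightest probe set, 19.6% of 18193 passed, 7.84% higher and 11.7% lower. Htr2c was the 1 member gene of 9 that passed, and it was lower (limma across genes, adjusted p = 0.000172). It was also the 1 member gene whose groups did not overlap, as 24.3% of all genes did not. At 11.1% of the 9 genes, the share that passed was below the 19.6% of all genes. A count of 1 among 9 genes does not set the receptors apart as a group. The median log2 fold change of the 9 genes was 0.04, against 0.00 over all genes. Htr2c passed in all 19 alternative fits, with log2 fold changes from -1.63 to -0.86, and no other member passed in any of them.

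Among the Gi-coupled receptors, Htr1b had its brighter probe set (1422288_at) at 7.69, 7.98, 8.17 and 7.77 in wildtype and 7.96, 8.02, 7.96 and 7.85 in knockout-labelled replicates 1 to 4. The wildtype arrays spanned the whole range of the knockout-labelled ones. Its log2 fold change was 0.05, with a 95% interval from -0.19 to 0.28. The dimmer probe set of Htr1b (1442077_at) gave 0.25, with an interval from just below zero to 0.49 (limma across all probe sets, adjusted p = 0.194). There wildtype replicate 4 was the lowest array, at 4.57 against 4.99 to 5.08 in the other wildtype arrays.

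Htr1a, the autoreceptor of serotonergic neurons, showed differences of 0.01 and 0.04 at its 2 probe sets, with intervals from -0.20 to 0.22 and from -0.44 to 0.51. The second of these (1450219_at) had the widest spread of all members, because knockout-labelled replicate 2 read 5.50 while replicates 1, 3 and 4 read 4.65, 4.53 and 4.41. Htr1d differed by -0.10, -0.04 and -0.10 at its 3 probe sets, and the 3 intervals lay between -0.35 and 0.22. Htr5a had 1 probe set (1443276_at) whose groups did not overlap, at 4.10, 3.97, 4.13 and 4.05 in wildtype and 4.24, 4.19, 4.17 and 4.33 in knockout-labelled arrays. The difference was 0.17 and did not pass (limma across all probe sets, adjusted p = 0.151, unadjusted p = 0.0342), and groups were apart in 18.8% of all probe sets. The brighter probe set of Htr5a gave 0.17 with overlapping groups (adjusted p = 0.467).

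Of the other Gq-coupled member, Htr2b, a receptor known from heart and mesenchymal development, the only probe set read 4.24 to 4.63 in wildtype and 4.13 to 4.64 in knockout-labelled arrays. Its log2 fold change was -0.13, with an interval from -0.41 to 0.15. The channel subunit Htr3a read 5.94 to 6.20 in wildtype and 5.90 to 6.39 in knockout-labelled arrays, a difference of 0.05 with an interval from -0.18 to 0.29. The groups overlapped at each of these genes, and at Htr3a the knockout-labelled arrays spread more widely (SD 0.20, against 0.11 in wildtype).

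Among the Gs-coupled receptors, Htr4 read 3.21, 3.37, 3.24 and 3.32 in wildtype and 3.48, 3.51, 3.34 and 3.45 in knockout-labelled arrays at its brighter probe set (1427654_a_at). Knockout-labelled replicate 3 fell within the wildtype range, and the difference of 0.16 did not pass (limma across all probe sets, adjusted p = 0.171, unadjusted p = 0.0414). The other Htr4 probe set gave 0.02. Htr7 gave 0.04 at the brighter probe set (1435332_at), whose 8 arrays all lay between 4.94 and 5.09, and -0.18 at the dimmer one (adjusted p = 0.384). The probe sets of Htr7 thus had opposite signs, neither past the test.

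The 15 uncalled probe sets had log2 fold changes from -0.18 to 0.25, 10 above zero and 5 below, and the lowest adjusted p among them was 0.151. Their 95% intervals together ran from -0.44 to 0.51, so falls as large as that of Htr2c lie outside each of them on this scale. Of the 17 probe sets, 13 were under the 50th percentile of all probe sets by mean level and 6 under the 25th (a level of 4.34). RMA values of this kind carry no detection call, so for these receptors a low level cannot be told from background, and a change in a transcript under background would not be seen.

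The receptor genes outside the 10 gave the same kind of values. Htr6 differed by 0.06, Htr3b by -0.04, Htr5b by -0.02 and Htr1f by -0.01, and 0 of the 4 passed (limma, with 0 at an unadjusted p under 0.05 as well). Their brightest probe sets had mean levels between the 13.1th and the 26.1th percentile.

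Knockout-labelled replicate 2 and wildtype replicate 3 were often the highest arrays of their groups among the receptors. Replicate 2 was the highest knockout-labelled array at 12 of 17 member probe sets and wildtype replicate 3 the highest wildtype array at 10 of 17. Among all probe sets under the median level these arrays were highest in 44.2% and 35.0%. Their lower quartiles, 4.40 and 4.37, were the highest of their groups, in which the other arrays had 4.29 to 4.33 and 4.28 to 4.33. After quantile normalization the counts were 10 and 8 of 17, and the shares under the median level 34.8% and 26.8%. The brighter Htr2c probe set had the same highest arrays, with a log2 fold change of -0.89 after that normalization (limma, adjusted p = 0.000231).

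Cell type markers moved between the groups beside Htr2c, and their part in the Htr2c result was not tested. Of 17 measured markers of the choroid plexus epithelium, the cells that carry Htr2c, 14 were lower and 0 higher, with a median log2 fold change of -1.01, and the mean level of the list was 9.61 to 9.90 in knockout-labelled and 10.71 to 10.91 in wildtype arrays. Of these markers 11 fell by more than Htr2c did at its brighter probe set and 6 had a smaller difference, and Ttr, the thyroid hormone carrier that defines this epithelium, was near the top of the scale in both groups (14.17 and 14.21). Of 13 stroma and mural genes 10 were higher and 2 lower, and of 12 macrophage genes 8 were higher and 0 lower. Of 11 endothelial genes 1 was higher and 3 lower, of 10 neural progenitor genes 3 higher and 0 lower, and of 9 serotonergic neuron genes 0 higher and 2 lower. Against 19.6% of all genes, 82.4% of the epithelium, 92.3% of the stroma and mural and 66.7% of the macrophage markers passed. The shares were 36.4% for endothelium, 30.0% for neural progenitors and 22.2% for serotonergic neurons, the last of them near that of all genes. Genes above the median gene level, all endothelial markers among them, passed more often. In limma over those 9096 genes alone, 1459 were higher and 1816 lower. Shares here and for the lists below were not compared with genes of like level. The single endothelial gene that was higher, Cdh5, lost its call with the replicate block (limma, adjusted p = 0.0827) and in 7 of the 8 fits that left an array out (it held when knockout-labelled replicate 2 was dropped). Pecam1, 1 of the 3 lower endothelial genes, was close to the threshold with overlapping groups (limma, adjusted p = 0.0497). Its call was lost in 11 of 19 alternative fits. In the stroma and mural list Acta2 did not pass, and the 2 lower genes were the mural markers Rgs5 (-0.34) and Abcc9 (-0.45). The count of 2 lower was 1 without wildtype replicate 3 and without wildtype replicate 4. In bulk tissue, fewer epithelial cells and less Htr2c RNA per cell cannot be told apart.

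**Figure D3:**
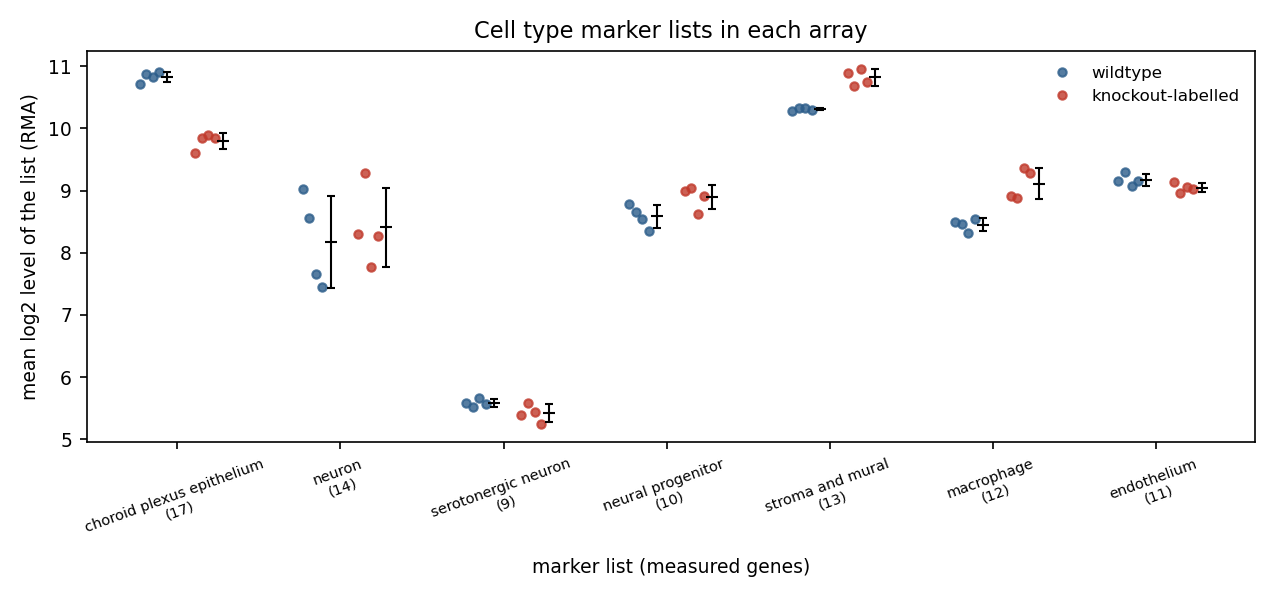
Mean log2 level of 7 cell type marker lists (x axis, with the number of measured genes) in each array, with the mean and SD of each group beside the points, wildtype in blue and knockout-labelled in red. The epithelium list lies lower in all knockout-labelled arrays, and the means of the stroma and mural list and of the macrophage list lie higher. The neuron list runs from 7.45 to 9.29 within overlapping groups.

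Neuron markers varied more between arrays than between groups. The mean of the 14 genes was 9.03, 8.56, 7.65 and 7.45 in wildtype and 8.30, 9.29, 7.77 and 8.27 in knockout-labelled replicates 1 to 4. None of the 14 passed the test, against 19.6% of all genes (limma, with 1, Gap43, at an unadjusted p under 0.05). Without wildtype replicate 1, 1 of them was higher. The median log2 fold change of the list was 0.30, and the 95% interval of Tubb3 ran from -0.80 to 1.54. The count therefore does not show that neuron markers were equal between the groups. With the list mean as a covariate, added after seeing the data, the Htr2c difference was -0.93 (adjusted p = 0.000267). Of the defining markers of serotonergic neurons, Tph2, the neuronal form of the rate-limiting enzyme of serotonin synthesis, read 2.77 to 3.05 over the 8 arrays, around the 5.65th percentile of all probe sets. The other measured genes of that list lay between the 12.2th percentile (Slc18a2) and the 74.1th (Gata2), and Fev was not measured. Lmx1b, a homeodomain factor of the roof plate as well as of serotonergic neurons, changed by -0.51 (adjusted p = 0.000722), or by -0.31 at the smallest among the alternatives.

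**Figure D4:**
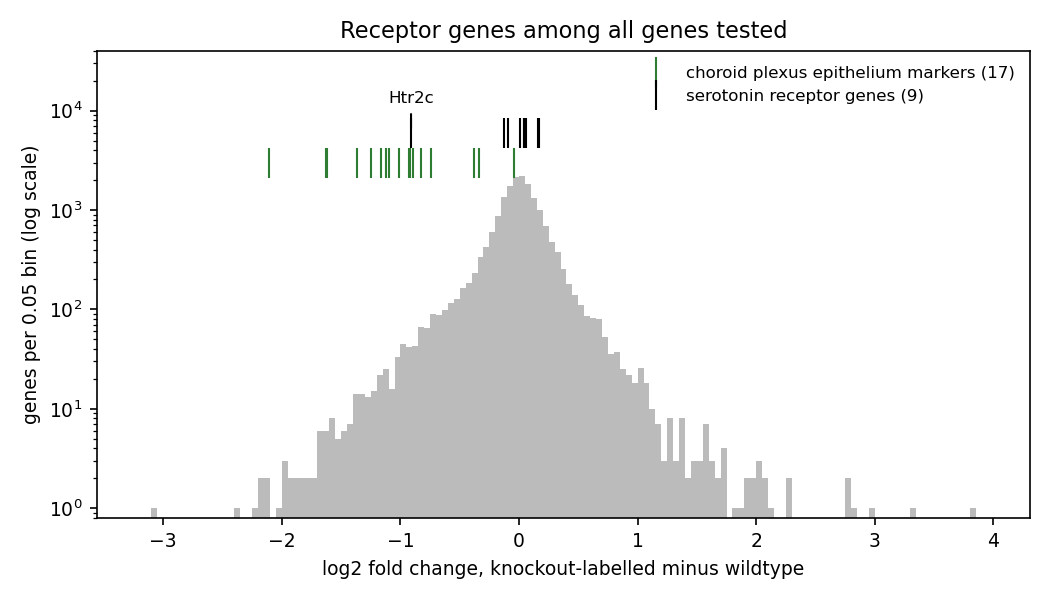
Number of genes (log scale) by log2 fold change, knockout-labelled minus wildtype, for all 18193 genes, with ticks for the 9 serotonin receptor genes (black) and the 17 choroid plexus epithelium markers (green). Htr2c lies at -0.91 among the epithelium markers, and the other 8 receptor genes lie between -0.13 and 0.17.

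Among all genes, 290 of the 2131 called lower fell by more than Htr2c, or 13.6%. The 5 genes whose profiles over the 8 arrays, centred on their means, were nearest to that of Htr2c were Bbof1, a basal body protein, Ate1, an arginyltransferase, Adgrv1, an adhesion G protein-coupled receptor, Mlf1, and Npr3, the natriuretic peptide clearance receptor. Their root mean square differences from Htr2c were 0.0747, 0.0851, 0.0853, 0.0876 and 0.0888 log2 units. The 5 differed between the groups by -0.92, -0.82, -0.93, -1.04 and -0.89, and this is a description of these arrays with no test.

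Genes that make, carry and break down serotonin moved both ways, with 2 of 17 measured members higher and 3 lower (29.4%, against 19.6% of all genes). Their median log2 fold change was -0.08. Slc29a4, a low-affinity transporter that takes up serotonin and other monoamines and is known from the choroid plexus, read 10.39, 10.41, 10.33 and 10.27 in wildtype and 9.35, 9.81, 9.31 and 9.28 in knockout-labelled arrays. The groups were apart, with knockout-labelled replicate 2 nearest to wildtype, and the difference was -0.91 ± 0.11 (SE; limma across genes, adjusted p = 0.000469). Maob, a monoamine oxidase, read 6.76 to 7.06 in wildtype and 6.31 to 6.57 in knockout-labelled arrays, a difference of -0.50 (adjusted p = 0.00230). Qdpr, which regenerates the cofactor of tryptophan hydroxylase, was higher by 0.30 (adjusted p = 0.00757).

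The other 2 called genes of that list, the oxidase Maoa and the cofactor enzyme Pts, were close to the threshold. Maoa was higher by 0.24 and Pts lower by 0.24, and their calls did not hold in 13 and 12 of 19 alternative fits, Pts turning its sign at its most variable probe set. Leaving out any 1 array but knockout-labelled replicate 2 ended the Maoa call, and leaving out any but knockout-labelled replicate 3 ended that of Pts. Tph1, the form of tryptophan hydroxylase outside neurons, differed by -0.02 and Tph2 by 0.06. The high-affinity serotonin transporter Slc6a4 differed by -0.27 and did not pass (adjusted p = 0.139). Without knockout-labelled replicate 2 it passed, at -0.38 (adjusted p = 0.00619).

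**Figure D5:**
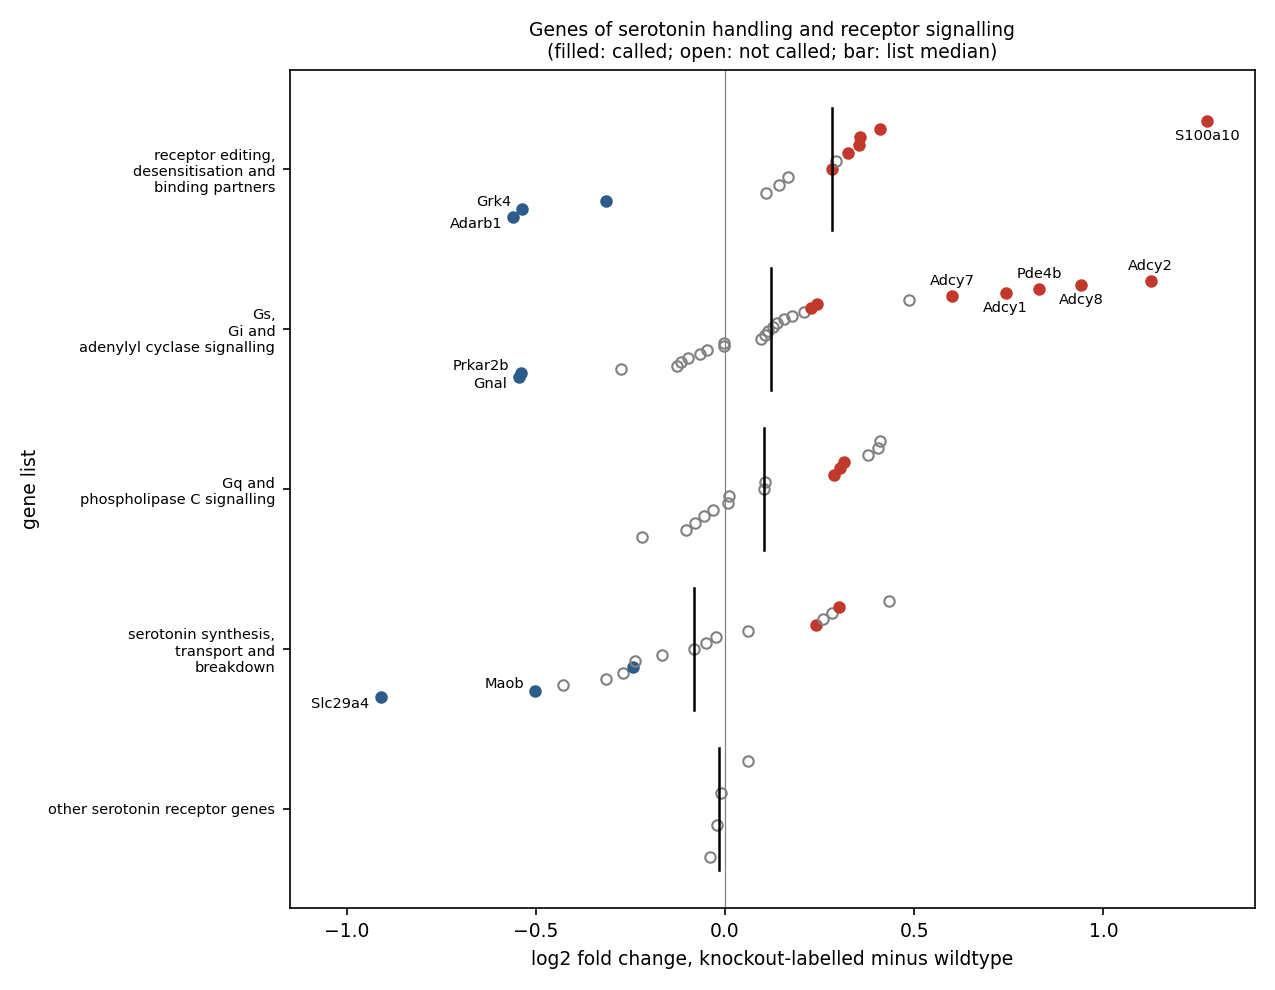
Log2 fold change, knockout-labelled minus wildtype, of each measured gene in 5 lists, the receptor genes outside the 10 and 4 lists of serotonin handling and receptor signalling (y axis; the 9 member genes are not drawn), with filled points for genes that passed the test, open points for those that did not, and a bar at the list median. Of the genes drawn, Slc29a4 lies lowest at -0.91 and S100a10 highest at 1.27.

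Downstream of Htr2c, genes of Gq and phospholipase C signalling showed small differences, with 3 of 15 higher, 0 lower and a median of 0.10. That is 20% of the list, near the 19.6% of all genes. Most of the 15 lie above the median gene level, and the count was not compared with genes of like level. It is not read as a result about the list. The 3 were Rgs4, an inhibitor of Gq and Gi signalling, the inositol trisphosphate receptor Itpr3 and the Gq subunit Gnaq, with differences of 0.29, 0.30 and 0.31 (limma across genes, adjusted p = 0.0238, 0.0286 and 0.0427). Their number was 1 without knockout-labelled replicate 3. It was 0 when replicate 1 or 4 of the knockout-labelled arrays, or replicate 3 or 4 of the wildtype arrays, was dropped. Itpr3 did not pass with the replicate block (adjusted p = 0.0582), and Gnaq gave -0.13 at its most variable probe set. None of the phospholipase C beta genes passed, with differences from -0.22 for Plcb4 to 0.38 for Plcb1 (limma, with Plcb4 alone at an unadjusted p under 0.05). Plcb1 passed without wildtype replicate 1, at 0.57 (adjusted p = 0.0278).

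Genes of the cyclic AMP branch, which serves the Gs- and Gi-coupled receptors, also moved both ways. Of 26 measured genes 7 were higher and 2 lower (34.6%, against 19.6% of all genes), with a median of 0.12. Most of the 26 lie above the median gene level, where genes passed more often (1459 higher and 1816 lower of 9096). The count was not compared with genes of like level, so it is not read as a result about the list. Adcy2, an adenylyl cyclase, read 7.24, 7.55, 7.46 and 7.46 in wildtype and 8.38, 8.52, 8.66 and 8.65 in knockout-labelled arrays, 2.18-fold higher (limma across genes, adjusted p = 3.77e-05). Adcy8, a cyclase stimulated by calcium, was 1.92-fold higher (adjusted p = 0.000743). Pde4b, a phosphodiesterase that breaks down cyclic AMP, was 1.78-fold higher (adjusted p = 0.000186), with a log2 fold change of 0.83 that became 0.41 as the mean over its probe sets. The 2 that were lower were the G protein subunit Gnal and the kinase subunit Prkar2b, at -0.55 and -0.54, and the Gnal call was lost as the mean over its probe sets (-0.32, adjusted p = 0.0554). The Gs subunit Gnas did not pass (adjusted p = 0.554).

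Genes that edit, desensitise or bind serotonin receptors moved both ways, with 6 of 13 higher, 3 lower (69.2%, against 19.6% of all genes) and a median of 0.28. S100a10, an adaptor that binds Htr1b and Htr4, read 9.28, 9.20, 9.61 and 9.44 in wildtype and 10.84, 10.39, 10.84 and 10.54 in knockout-labelled arrays. It was 2.42-fold higher with groups far apart (limma across genes, adjusted p = 0.000119), while neither Htr1b nor Htr4 passed. Adarb1, an editing enzyme of Htr2c pre-mRNA, read 7.33, 7.50, 7.40 and 7.46 in wildtype and 6.90, 6.89, 6.87 and 6.79 in knockout-labelled arrays. Its spread was small and the difference was -0.56 ± 0.06 (SE; adjusted p = 0.000236), or -0.31 as the mean over its 3 probe sets. The related enzyme Adar differed by 0.11 and did not pass (adjusted p = 0.244), and the array does not measure editing.

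Grk4, a kinase that desensitises G protein-coupled receptors, differed by -0.54 on the log2 scale and was lower (limma across genes, adjusted p = 0.00276), and Grk5 was higher by 0.33, a call lost as the mean over its probe sets (0.19, adjusted p = 0.119). Mpdz, a scaffold that binds the tail of Htr2c, was higher by 0.36 (adjusted p = 0.0116), or 0.23 as the mean over its probe sets. Dlg4, the synaptic scaffold of the same kind, changed by -0.32 (adjusted p = 0.00915). Dropping replicate 1, 3 or 4 of the knockout-labelled arrays, or replicate 2 or 3 of the wildtype arrays, left 3 higher genes in this list.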

How the data were processed

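The authors deposited RMA values on a log2 scale for each probe set. RMA is named in the submitters' processing notes, without its software or version. Probe sets were named through the platform annotation, and only those with 1 gene (34945 of 45101, of which 64 are controls) were used for genes. The 2 groups were compared by a linear model with moderated variance (limma 3.58.1, R 4.3.3), which had group as its single factor and no filter on level, with two-sided p-values and Benjamini-Hochberg adjustment over 18193 genes, each by its brightest probe set over all arrays, or over 45037 probe sets. Genes passed at an adjusted p under 0.05. Depth does not apply to arrays, whose number limits the precision.

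Deviations of same-numbered arrays had r = 0.131, 0.232, 0.160 and 0.223 across genes, all above the limit of 0.1 set beforehand. The numbers were therefore taken as pairs in a blocked fit. The 12 differently numbered pairs had r from -0.296 to 0.294, so same-numbered arrays did not stand out from them. No label says what a number marks.

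The members, the lists (170 of 181 entries measured) and the tests were chosen with earlier results of these data known. The genes named were the receptors, Otx2, up to 3 called genes with the smallest p of each pathway list and the 5 profiles nearest to Htr2c. Others were chosen after their values were seen. Of the marker lists mainly counts are given. The fit was tested on simulated data. Promoters are from RefSeq (GRCm38.p6).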

Additional observations from a re-analysis of the deposited data

Results flagged for a closer look

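In 44 groups of 4 arrays (22 receptor probe sets, each in both groups), the gap of the highest or lowest array to its neighbour was compared with the range of the group, and chance gives about 1 such finding in 20 groups. It stood out 2 times, both at receptor genes outside the 10. Htr1f read 4.50 in knockout-labelled replicate 2, against 4.37 to 4.39 in the other 3 arrays of that group. Htr6 read 4.24 in wildtype replicate 3, against 3.98 to 4.02.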

How the results depend on the processing

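The Htr2c call and the count of receptor genes passing the test (0 higher, 1 lower) were the same in all alternative fits and thresholds, with the replicate block and without any 1 array. The 8 uncalled member genes stayed uncalled, with another sign than the main one in 13 of their fits. The 18 higher genes of the pathway lists numbered 9 to 18 without 1 array, 11 with the mean of probe sets, 11 with arrays centred on their medians, 11 with the sex covariate, 8 at an adjusted p under 0.01 and 6 with a 1.5-fold minimum, which left 1 of the 8 lower. Arrays centred on their medians moved the median of all genes by -0.03. The 22 higher marker genes were 13 with the 1.5-fold minimum. The sign turned with the most variable probe set for Pts (0.10), Gnaq (-0.13), Adcy9 (-0.028) and Pdgfra (-0.97), and for Pdgfra also when its probe sets were averaged (-0.17). The replicate block gave 14 higher and 9 lower pathway genes and changed no receptor call. The cause was not tested. Signal over background is not given for these arrays, which limits what can be said of the dim receptors.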
